A study of Mus musculus with 32 samples.

Results

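The interferon regulatory factors measured here are 9 genes: Irf1, Irf2, Irf3, Irf4, Irf5, Irf7, Irf8, Irf9 and Irf2bp2, the gene of a corepressor that binds IRF2. They were taken by name from the table of all genes, 9 of 25067 genes in all, and all 9 were among the 11187 genes tested (those with a mean RPKM, read counts scaled to transcript length and library size, over 1 in at least 1 group). Where several transcripts of a gene were listed, the transcript with the highest mean count stands for the gene. RNA-seq had been made from bone marrow-derived macrophages (BMDMs) of male C57Bl6/J mice aged 6 to 12 weeks, grown from bone marrow for 7 days in medium conditioned by L929 cells. BMDM-WT came from wild-type littermates, and BMDM-Nur77-KO, given as genotype cre in the labels, from whole-body knockout mice in which Cre under a CMV promoter had removed the loxP-flanked part of Nr4a1, the gene of the nuclear receptor Nur77. Cre itself was bred out afterwards. Each genotype was measured before and after 1, 5 and 18 h of stimulation with 100 ng/ml lipopolysaccharide (LPS, a ligand of the receptor TLR4), with 4 libraries per group and 32 in all. The cells were seeded in replicates and the number of animals is not given, so the p-values measure the spread between these libraries, which may be technical.

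Interferon regulatory factors are transcription factors that share a DNA-binding domain and recognise GAAA repeats, the core of the interferon-stimulated response element. In macrophages stimulated with LPS, TLR4 activates IRF3 through the adaptor TRIF, IRF3 induces interferon beta, and secreted interferon beta activates ISGF3, a complex that holds STAT2 and IRF9, which induces Irf7 and many antiviral genes. IRF1 is an inducible activator and IRF2 its antagonist at the same sites, IRF5 acts downstream of MyD88, and IRF8 and IRF4 act with partners such as PU.1 and BATF in myeloid and lymphoid cells.

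Totals per library were 8742362 to 15780926 counts, with a median of 11847140. Nr4a1 itself was lower in BMDM-Nur77-KO at 0, 1 and 5 h but not absent: before LPS it stood at 4.42 to 6.92 CPM (counts scaled to the normalized library size) against 15.5 to 25.5 CPM in BMDM-WT, and at 1 h at 190.5 ± 40.7 against 437 ± 60.0 CPM (SD, n = 4), or 43.6% of BMDM-WT (adjusted p = 1.9e-06, edgeR). At 5 h it was at 1.06 CPM or less in every library and lower in BMDM-Nur77-KO (adjusted p = 0.042, edgeR), and at 18 h, at 0.473 CPM or less, the genotypes overlapped and no difference was called (log2 fold change -0.47, 95% interval -1.88 to 0.94, adjusted p = 0.68). Every adjusted p here is from the quasi-likelihood test of edgeR, corrected by the Benjamini-Hochberg method over all genes tested. All 6 macrophage markers looked at were high, with a sum of 9667 to 18010 CPM in each library. Of markers of other cells that use Irf4 and Irf8, the dendritic cell genes Flt3, Siglech and Cd209a reached at most 0.418 CPM and Zbtb46 at most 1.12 CPM in any library, and the B cell genes Cd79a, Ms4a1 and Ebf1 at most 0.710 CPM, Pax5 at most 2.15 CPM and the plasma cell gene Jchain at most 4.60 CPM. The sum of the 6 dendritic cell markers was 1.21 to 2.51 CPM at 0 h, 13.2 to 26.7 CPM at 5 h, and at 18 h 5.14 to 7.17 CPM in BMDM-WT against 13.5 to 21.8 CPM in BMDM-Nur77-KO, carried by Xcr1 (up to 20.9 CPM) and Clec9a (up to 16.5 CPM). The sum of the 7 B cell and plasma cell markers was 30.0 to 100.6 CPM and nearly all of it was Sdc1 (23.5 to 98.9 CPM). The sum of the 5 T cell markers was 12.5 to 21.7 CPM at 0 h and 37.9 to 49.55 CPM at 5 h. Lck reached 38.5 CPM and Cd4 20.6 CPM, and Cd3e, Cd3d and Cd8a at most 0.921 CPM. The sum of the 7 markers of neutrophils and their precursors was 15.6 to 45.7 CPM. The part of these markers in the results below was not tested. In bulk RNA, fewer cells of a type and less RNA per cell cannot be told apart.

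A pair of libraries of BMDM-Nur77-KO stood apart from their groups, namely replicate 1 of the 5 h group and replicate 4 of the 18 h group. Their median absolute deviation from the median of the other libraries of the group was 0.440 and 0.305 on the log2 scale, against 0.219 or less in the other 30 libraries. In both, transcripts rich in G and C were low, with slopes of -0.64 and -0.46 (log2 per 10 percentage points of GC). Results at 5 and 18 h are therefore also given without these libraries, an alternative chosen after seeing the data like the correction for GC content, where that changes them. The most affected of the 9 genes were Irf2, with the lowest GC content (46.8%), and Irf5 and Irf3 (55.7% and 56.7%). Irf4 (47.6%), Irf8 (56.3%) and Irf7 (56.5%) had a like GC content. After correction for GC content, replicate 1 at 5 h still had the highest Irf2 (496 against 279 to 389 CPM) and the lowest Irf5 (240 against 367.5 to 415 CPM) of its group. The part of GC content in these values was not tested.

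The question of the first comparison is how the 9 genes respond to LPS in each genotype. In BMDM-WT, Irf1 and Irf4 rose within 1 h. By 5 h, 6 of the 9 genes were above their level before LPS and 3 (Irf3, Irf4 and Irf2bp2) below it, and by 18 h Irf8 and Irf2bp2 had turned back to within 0.31 of their starting level on the log2 scale while Irf7 had climbed further. Called at an adjusted p under 0.05, 2 members were higher and 1 lower at 1 h (10.1% and 10.2% of all genes tested), 6 and 3 at 5 h (30.1% and 40.1%) and 6 and 2 at 18 h (32.4% and 34.0%). In BMDM-Nur77-KO, 4 were higher and 0 lower at 1 h (6.90% and 5.39% of all genes), 6 and 2 at 5 h (32.2% and 39.3%) and 6 and 1 at 18 h (33.9% and 35.7%). Between 1 and 5 h, 5 members rose and 3 fell in BMDM-WT (29.0% and 36.1% of all genes) and 6 and 3 in BMDM-Nur77-KO (32.6% and 38.3%). Between 5 and 18 h, 3 rose and 5 fell in BMDM-WT (36.1% and 33.4%) and 3 and 4 in BMDM-Nur77-KO (35.1% and 34.2%). The median log2 fold change of the 9 genes at 5 h was 1.34 in BMDM-WT and 1.67 in BMDM-Nur77-KO, beside -0.14 and -0.12 over all genes tested.

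**Figure D1:**
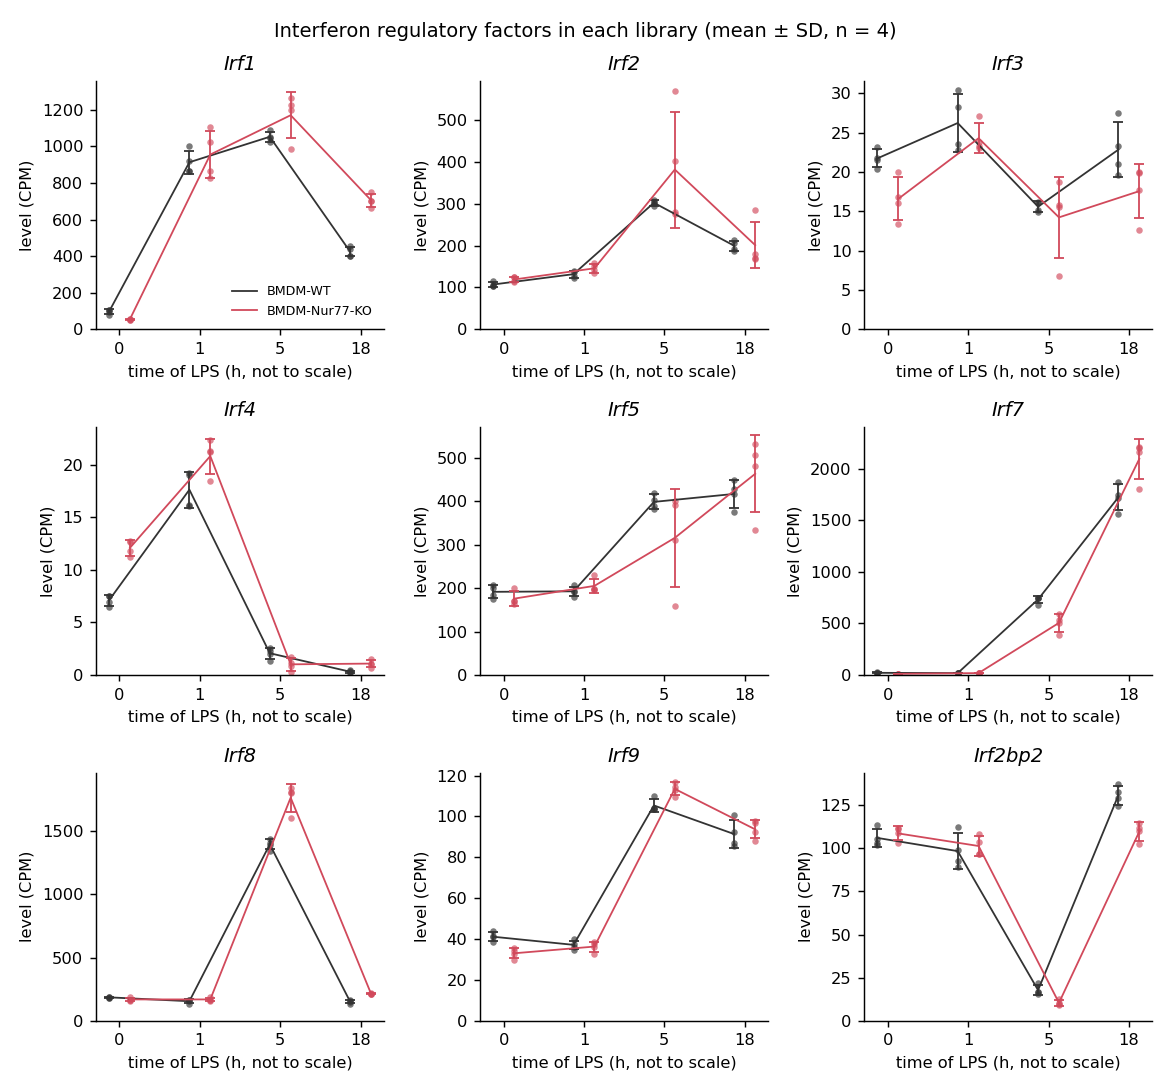
Level of each of the 9 genes in CPM (vertical axis, from 0, a separate scale for each gene) at 0, 1, 5 and 18 h of LPS in BMDM-WT (black) and BMDM-Nur77-KO (red). Points are libraries, and lines and bars are the mean ± SD of 4. Irf8 peaked and Irf2bp2 dipped at 5 h in both genotypes, Irf7 climbed to 1560 to 2211 CPM at 18 h, and replicate 1 of BMDM-Nur77-KO at 5 h lay far from the others for Irf2 and Irf5.

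Irf1 (chromosome 11 of GRCm38, 53770014 to 53778374) was the fastest member. In BMDM-WT, it had 105, 77.7, 96.4 and 103 CPM before LPS, and 1001, 920, 865 and 868 CPM after 1 h, a 9.51-fold rise (log2 fold change 3.25, SE 0.10, adjusted p = 4.8e-22, edgeR). It stood at 1053 ± 27.4 CPM at 5 h and at 424 ± 26.5 CPM at 18 h (SD, n = 4). In BMDM-Nur77-KO, it started from 56.8, 51.5, 52.5 and 56.9 CPM, reached 1104, 830, 1024 and 864 CPM at 1 h and 1171 ± 125 CPM at 5 h, and was still at 706 ± 35.3 CPM at 18 h. The starting levels of the genotypes did not overlap, the levels at 1 h did, and those at 18 h were apart again, in the other direction. The step from 1 to 5 h missed the threshold in BMDM-WT (log2 fold change 0.19, SE 0.09, adjusted p = 0.066, edgeR) and passed it in BMDM-Nur77-KO (0.28, SE 0.09, adjusted p = 0.0070). Irf2 (chromosome 8, 46739745 to 46847458), the antagonist, moved later and less. It went from 107 ± 6.21 to 302 ± 6.65 CPM at 5 h in BMDM-WT, a 2.79-fold rise (adjusted p = 1.5e-09, edgeR), and to 199 ± 12.3 CPM at 18 h.

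Of the factors that act on the interferon genes, Irf3 (chromosome 7, 44997648 to 45002848) was low throughout, at 6.78 to 30.4 CPM in the 32 libraries, and fell at 5 h in BMDM-WT from 21.7 ± 1.13 to 15.6 ± 0.677 CPM (log2 fold change -0.50, SE 0.18, adjusted p = 0.015, edgeR), a call lost after correction for GC content (adjusted p = 0.062, edgeR). Its rise at 1 h in BMDM-Nur77-KO (0.54, SE 0.17, adjusted p = 0.038, edgeR) was lost in 7 of 8 fits without a single library, with an adjusted p of up to 0.15 without replicate 1 of the 0 h group. IRF3 is activated by phosphorylation, which RNA does not show. Irf7 (chromosome 7, 141263183 to 141266499), the inducible factor of the late interferon response, had the widest range of the 9. Before LPS it stood at 18.6, 19.3, 26.7 and 19.4 CPM in BMDM-WT and at 8.68, 10.5, 12.2 and 12.9 CPM in BMDM-Nur77-KO. At 5 h, it reached 749, 682, 750 and 747 CPM in BMDM-WT and 385, 506, 536 and 590.5 CPM in BMDM-Nur77-KO. At 18 h, it reached 1746, 1869, 1560 and 1713 CPM in BMDM-WT and 2211, 2199, 2163 and 1802 CPM in BMDM-Nur77-KO. The genotypes were thus apart before LPS and at 5 h, with BMDM-Nur77-KO lower, and overlapped at 18 h through its replicate 4, one of the libraries that stood apart. From 0 to 18 h, Irf7 rose 81.7-fold in BMDM-WT (log2 fold change 6.35, SE 0.15, adjusted p = 4.0e-25, edgeR) and 185.6-fold in BMDM-Nur77-KO (7.54, SE 0.16, adjusted p = 1.7e-26). Irf5 (chromosome 6, 29526130 to 29541869) rose from 191 ± 14.6 to 398 ± 17.1 CPM at 5 h in BMDM-WT (2.05-fold, adjusted p = 1.8e-06, edgeR) and stayed at 417 ± 31.5 CPM at 18 h. Irf9 (chromosome 14, 55603985 to 55610030), the DNA-binding part of ISGF3, rose from 41.1 ± 2.21 to 105 ± 2.96 CPM at 5 h in BMDM-WT (2.53-fold, adjusted p = 4.7e-17, edgeR), and the step down to 91.4 ± 6.84 CPM at 18 h also passed the test (adjusted p = 0.012, edgeR), with an adjusted p of up to 0.048 when single libraries were left out.

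The strongest turns were those of Irf8 and Irf2bp2. Irf8 (chromosome 8, 120736358 to 120756694), a factor that sets macrophage and dendritic cell identity, had 182, 179, 192 and 188.5 CPM before LPS in BMDM-WT, then 1404, 1387, 1440 and 1343 CPM at 5 h, and 149, 165, 133 and 156 CPM at 18 h. In BMDM-Nur77-KO, it had 164, 160, 164 and 188 CPM before LPS, 1599, 1803, 1841 and 1810 CPM at 5 h, and 211, 222, 209.7 and 212 CPM at 18 h. The rise at 5 h was 7.42-fold in BMDM-WT (log2 fold change 2.89, SE 0.08, adjusted p = 5.6e-24, edgeR) and 10.3-fold in BMDM-Nur77-KO (3.36, SE 0.08, adjusted p = 2.5e-25), and at 18 h Irf8 lay below its starting level in BMDM-WT (-0.31, SE 0.07, adjusted p = 6.7e-04) and above it in BMDM-Nur77-KO (0.32, SE 0.07, adjusted p = 4.1e-04). A small fall at 1 h in BMDM-WT (-0.27, SE 0.07, adjusted p = 0.0094, edgeR) was lost without replicate 4 of that group (adjusted p = 0.066) and after correction for GC content (adjusted p = 0.47). Irf2bp2 (chromosome 8, 126588296 to 126593986) ran the other way. It had 114, 103, 102 and 106 CPM before LPS in BMDM-WT, 15.7, 16.7, 16.6 and 22.1 CPM at 5 h, and 132, 124, 129 and 137 CPM at 18 h. In BMDM-Nur77-KO, it had 109, 103, 111 and 112 CPM before LPS, 9.90, 9.04, 10.1 and 12.6 CPM at 5 h, and 110.1, 102, 115 and 112 CPM at 18 h. At 5 h, the level was 16.5% of that before LPS in BMDM-WT (log2 fold change -2.60, SE 0.10, adjusted p = 1.1e-20, edgeR) and 9.42% in BMDM-Nur77-KO (-3.41, SE 0.10, adjusted p = 3.6e-23), and every library at 5 h lay below every library of the other times. Pearson's r between the log2 CPM of Irf8 and Irf2bp2 was -0.98 over the 32 libraries, which share depth, normalization and the groups. The relatives Irf2bp1 and Irf2bpl were also below their starting level at 5 h in BMDM-WT, by 1.54 and 1.20 on the log2 scale (adjusted p = 1.7e-06 and 1.8e-11, edgeR), from 8.78 to 12.9 CPM down to 3.15 to 4.31 CPM and from 37.4 to 51.0 CPM down to 16.8 to 21.1 CPM. Unlike Irf2bp2, both were already called lower at 1 h in BMDM-WT, with 5.65 to 7.88 CPM (Irf2bp1) and 24.5 to 25.7 CPM (Irf2bpl). Irf2bp2 was not called at that time (-0.12, adjusted p = 0.37, edgeR).

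Irf4 (chromosome 13, 30749233 to 30766981), known from lymphocytes and from alternatively activated macrophages, was the lowest member per length of transcript in all 8 groups. It had 6.96, 7.50, 6.45 and 7.51 CPM before LPS in BMDM-WT and 19.0, 16.1, 16.1 and 19.2 CPM after 1 h (2.46-fold, log2 fold change 1.30, SE 0.16, adjusted p = 8.2e-08, edgeR), and from 5 h on it was nearly gone. At 18 h, 2 to 5 counts per library were left in BMDM-WT and 8 to 22 in BMDM-Nur77-KO.

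Compared per length of transcript, the most abundant member changed with time. Before LPS, Irf5 and Irf8 led in BMDM-WT with 85.3 ± 6.53 and 81.7 ± 2.55 RPKM (SD, n = 4), whose libraries overlapped, and Irf4 was last with 1.49 ± 0.106 RPKM. Irf1 led at 1 h with 427 ± 29.8 RPKM, Irf8 at 5 h with 614 ± 17.8 RPKM and Irf7 at 18 h with 899 ± 66.3 RPKM, each above the next gene in all libraries. The same gene led in BMDM-Nur77-KO at each time, with 447 ± 61.0 (Irf1, 1 h), 777 ± 48.8 (Irf8, 5 h) and 1093 ± 102 RPKM (Irf7, 18 h). Over the 8 groups, the levels of Irf1 at 1 and 5 h overlapped in neighbouring groups of the order, as did those of Irf5 in all groups next to each other. For Irf8 the order was BMDM-Nur77-KO at 5 h, BMDM-WT at 5 h and BMDM-Nur77-KO at 18 h, each without overlap to the next, followed by 5 groups whose neighbours overlapped. For Irf2bp2, BMDM-WT at 18 h stood first and the groups at 5 h last, apart from their neighbours.

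Promoter sequences of the members were also searched, although the members did not all move together. RefSeq promoters of GRCm38.p6, 250 bases before to 50 bases after the start site, were found for all 9 genes (12 promoters). The motifs, chosen with the sequences in view, were GAS, the gamma-activated site (TTCNNNGAA, which reads the same on both strands), the ISRE core (GAAANNGAA) and the kappa B consensus, on both strands. Of all 32851 promoters of this length, 8.30% held the GAS letters, 8.56% the ISRE core and 4.51% the kappa B consensus. At least 1 of the 3 was found in 4 of the 9 genes, beside 22.1% of all genes with a promoter in the table. The stretches below run 5′ to 3′ on the strand of the gene, with the matches in capitals and 15 flanking bases where the window allows.
Irf1: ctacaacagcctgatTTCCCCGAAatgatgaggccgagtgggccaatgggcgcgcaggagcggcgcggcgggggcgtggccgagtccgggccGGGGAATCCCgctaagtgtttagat
Irf8: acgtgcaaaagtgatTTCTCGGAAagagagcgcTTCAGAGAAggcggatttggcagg
Irf2: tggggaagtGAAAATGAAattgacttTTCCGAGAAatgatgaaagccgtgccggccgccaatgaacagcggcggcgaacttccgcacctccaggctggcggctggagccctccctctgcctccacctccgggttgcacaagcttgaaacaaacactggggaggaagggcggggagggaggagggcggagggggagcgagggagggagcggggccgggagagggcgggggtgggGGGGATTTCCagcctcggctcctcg
Irf2bp2: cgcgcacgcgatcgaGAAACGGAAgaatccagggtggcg
The Irf1 stretch (chr11:53769909-53770025, plus strand) holds a GAS 90 bases before the start site and a kappa B match, read on both strands, 13 bases before it. That of Irf8 (chr8:120736172-120736228, plus strand) holds a GAS at 171 and another at 153 bases before the start site. That of Irf2 (chr8:46739495-46739752, plus strand) holds an ISRE core (241 bases), a GAS (224 bases) and a kappa B match (17 bases), and that of Irf2bp2 (chr8:126594104-126594142, minus strand) an ISRE core 141 bases before the start site. These matches describe the sequence. No binding was measured in these files.

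The second comparison is between the genotypes at each time. Before LPS, Irf1, Irf7 and Irf9 were lower and Irf4 higher in BMDM-Nur77-KO. At 1 h no member was called. At 5 h, Irf7, Irf4 and Irf2bp2 were lower and Irf8 higher, and at 18 h Irf1, Irf4 and Irf8 were higher and Irf2bp2 lower. As counts, 1 member was higher and 3 lower at 0 h (6.33% and 6.34% of all genes tested), 0 and 0 at 1 h (3.48% and 3.06%), 1 and 3 at 5 h (13.7% and 10.7%) and 3 and 1 at 18 h (11.7% and 9.94%). Irf1 and Irf4 were called in both directions, Irf7 was lower at 0 and 5 h, Irf8 higher and Irf2bp2 lower at 5 and 18 h, and Irf9 was called at 0 h alone. Without the libraries that stood apart, 5 members were called before LPS, 0 after 1 h, 4 after 5 h and 6 after 18 h. The share of all genes called in that fit is not given, here or below. Since the fit pools the spread over all groups, more calls in it cannot be read as particular to the members.

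**Figure D2:**
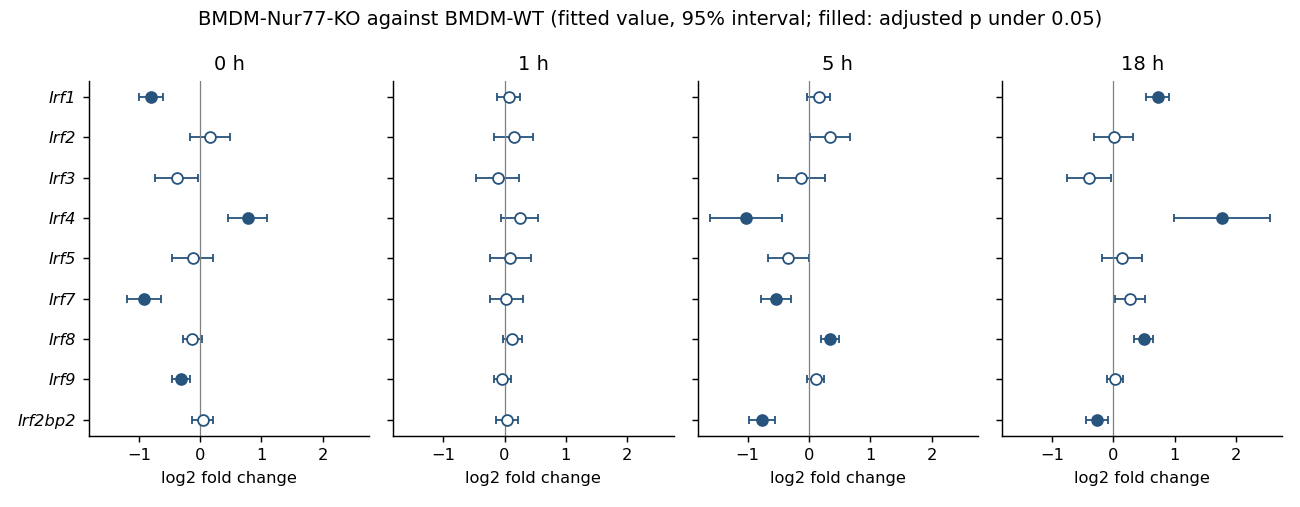
Fitted log2 fold change of BMDM-Nur77-KO against BMDM-WT (horizontal axis) for the 9 genes before and after 1, 5 and 18 h of LPS, with 95% intervals from the fit to all 32 libraries. Filled points have an adjusted p under 0.05, which 4 genes had before LPS, 0 after 1 h, 4 after 5 h and 4 after 18 h. Irf1 moved from -0.81 at 0 h to 0.72 at 18 h.

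Before LPS, Irf1 was at 57.1% of the wild-type level (log2 fold change -0.81, SE 0.09, adjusted p = 3.8e-07, edgeR), Irf7 at 53.1% (-0.91, SE 0.14, adjusted p = 2.0e-05) and Irf9 at 80.7% (-0.31, SE 0.07, adjusted p = 0.0030), with 33.0 ± 2.54 against 41.1 ± 2.21 CPM. In each of the 3, the 4 BMDM-Nur77-KO libraries lay below the 4 BMDM-WT libraries. Irf4 went the other way, with 11.2, 12.8, 12.6 and 11.8 CPM in BMDM-Nur77-KO against 6.45 to 7.51 CPM in BMDM-WT, a 1.71-fold difference (log2 fold change 0.77, SE 0.16, adjusted p = 0.0011, edgeR). Irf3 did not overlap between the genotypes either (13.4 to 20.0 against 20.4 to 23.2 CPM) but missed the threshold (-0.38, SE 0.17, adjusted p = 0.15), which it passed without the libraries that stood apart (adjusted p = 0.010, edgeR) although these are not libraries of 0 h, as the fit pools the spread. All 4 calls at 0 h held with each library left out in turn, with an adjusted p of at most 0.022 (Irf9).

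At 1 h, all 9 fitted differences lay between -0.11 (Irf3) and 0.24 (Irf4) on the log2 scale, and the libraries of the genotypes overlapped in every gene. The share of all genes that overlapped is not given. Few genes were called at this time (3.48% higher and 3.06% lower of all genes tested), so 0 calls among 9 genes cannot be read as particular to the members. At an unadjusted p under 0.05, the count was also 0 with edgeR, and DESeq2 called 0 members. The 95% intervals were -0.12 to 0.25 for Irf1 and -0.24 to 0.30 for Irf7, so that differences of the size seen before LPS lie outside them for both genes. The interval for Irf4, -0.05 to 0.54, was wider.

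At 5 h, Irf8 was 1.27-fold higher in BMDM-Nur77-KO (log2 fold change 0.34, SE 0.07, adjusted p = 0.0014, edgeR), and its lowest library there (1599 CPM) was above the highest of BMDM-WT (1440 CPM). Irf2bp2 was at 58.6% of BMDM-WT (-0.77, SE 0.10, adjusted p = 4.2e-06, edgeR), again without overlap. Irf7 was at 69.1% (-0.53, SE 0.12, adjusted p = 0.0021), and when its replicate 1 was left out the value was -0.43 (adjusted p = 0.0086, edgeR). Irf4 was at 49.1% (-1.03, SE 0.29, adjusted p = 0.011, edgeR), from 3 to 18 counts per library against 12 to 22, with overlap. The calls of Irf4 and Irf8 were lost when only the libraries of 5 h entered the fit (adjusted p = 0.20 and 0.051, edgeR). Irf2 and Irf5 were not called, and their spread within BMDM-Nur77-KO was wide. Irf2 had 570, 403, 280.1 and 274.5 CPM there against 294 to 310.1 CPM in BMDM-WT, and Irf5 had 158, 311, 391 and 401 CPM against 382 to 420 CPM. In both genes, the replicate with the extreme value was the one whose GC-rich transcripts were low. Leaving out another library instead, replicate 3 or 4, gave calls for Irf2 (0.47 and 0.47, adjusted p = 0.022 and 0.019, edgeR) and Irf5 (-0.45 and -0.47, adjusted p = 0.043 and 0.032), and leaving out replicate 1 gave 0.08 and -0.12 (adjusted p = 0.74 and 0.55). Irf3 ranged from 6.78 CPM in replicate 1 to 18.7 CPM in replicate 4. After correction for GC content, the difference in Irf8 was 0.54 (adjusted p = 6.1e-06, edgeR), and Irf1 and Irf9 were also called at 5 h (0.25 and 0.18, adjusted p = 0.0097 and 0.024, edgeR). The correction turned replicate 1 of BMDM-Nur77-KO from the lowest Irf8 of its group (1599 CPM) into the highest (2502 against 1874 to 2153 CPM). The SD of Irf8 in that group went from 111 to 283 CPM. How far the larger difference depends on this library was not tested.

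**Figure D3:**
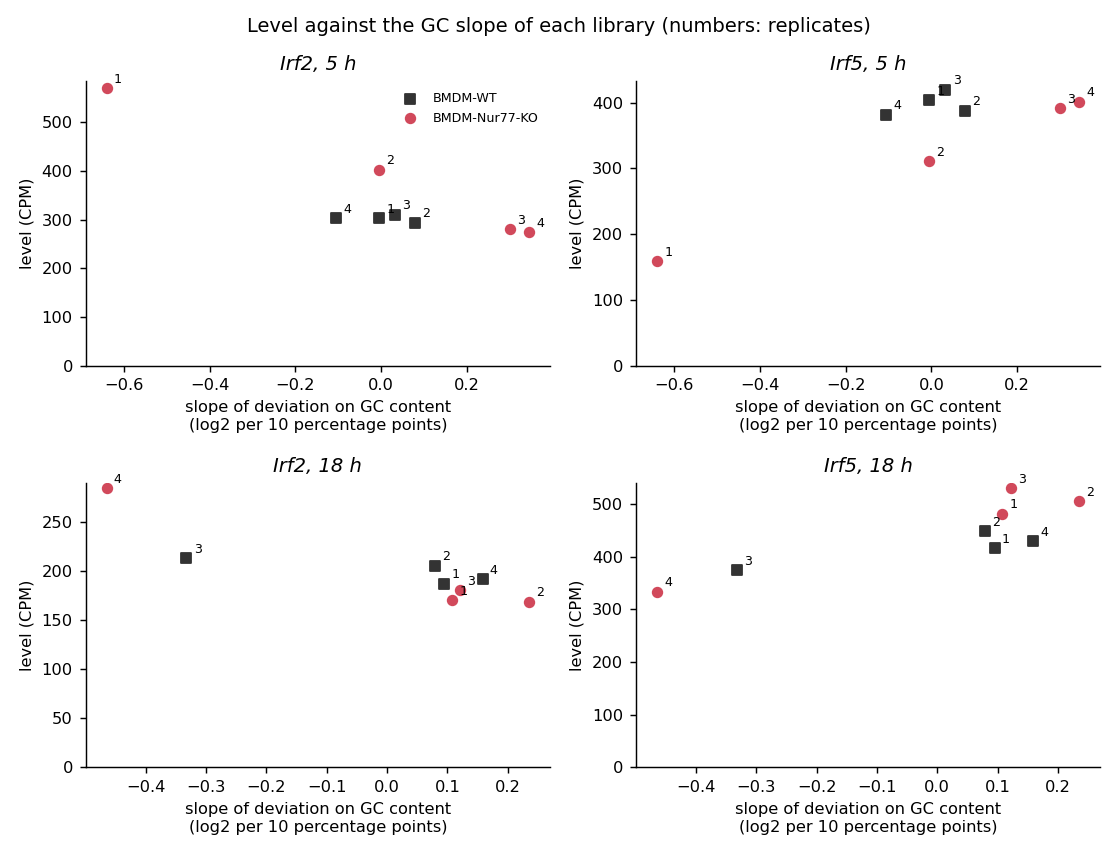
Level of Irf2 and Irf5 in CPM (vertical axis, from 0) at 5 h (top) and 18 h (bottom) against a GC slope (horizontal axis, log2 per 10 percentage points). The slope is that of each library's deviation from the mean of the other libraries of its group on transcript GC content. Squares are BMDM-WT, circles BMDM-Nur77-KO, and numbers are replicates. The 2 libraries farthest to the left hold the highest Irf2 (570 and 284 CPM) and the lowest Irf5 (158 and 334 CPM) of their groups.

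At 18 h, Irf1 was 1.65-fold higher in BMDM-Nur77-KO, with 703, 751, 703 and 665 CPM against 400.3, 453, 403 and 441 CPM in BMDM-WT (log2 fold change 0.72, SE 0.09, adjusted p = 4.2e-07, edgeR). Irf8 was 1.41-fold higher (0.49, SE 0.07, adjusted p = 8.1e-06, edgeR). Irf4 was 3.41-fold higher, with a 95% interval of 0.99 to 2.55 for the log2 fold change of 1.77 (adjusted p = 8.1e-04, edgeR), at the low counts given above. For these 3 genes the genotypes did not overlap, and the calls held with each library left out in turn. Irf2bp2 was at 83.3% (-0.26, SE 0.09, adjusted p = 0.027, edgeR), also without overlap, but the adjusted p was 0.077, 0.066 and 0.084 without replicate 2 of BMDM-Nur77-KO or replicate 1 or 4 of BMDM-WT, and 0.17 after correction for GC content. Irf7 was not called (0.27, SE 0.12, adjusted p = 0.10), whereas without the libraries that stood apart it was (0.34, adjusted p = 0.011, edgeR), as it was after the GC correction (0.37, adjusted p = 0.0014). Irf5 was called without these libraries as well (0.27, adjusted p = 0.016, edgeR). It had 481, 506, 530.5 and 334 CPM in BMDM-Nur77-KO, and Irf2 had 170.5, 169, 180.5 and 284 CPM. In Irf2, Irf5 and Irf7 replicate 4 was the library farthest from the rest. The summed macrophage markers at 18 h were 9667 to 10950 CPM in BMDM-Nur77-KO against 12290 to 12650 CPM in BMDM-WT, and the part of this difference in the results at 18 h was not tested.

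The third comparison asks whether the change from 0 h was of the same size in both genotypes, by the interaction term of the fit. It was called for 2 of the 9 genes at 1 h (0.0715% of all genes tested, 8 genes in all), for 5 at 5 h (3.12%) and for 4 at 18 h (9.44%). In BMDM-Nur77-KO, the response of Irf1 was larger after each time, by 0.87 (SE 0.13, adjusted p = 0.0029, edgeR), 0.96 (SE 0.13, adjusted p = 2.3e-05) and 1.53 (SE 0.13, adjusted p = 1.9e-09) on the log2 scale at 1, 5 and 18 h. That of Irf7 was larger by 0.94 at 1 h (SE 0.19, adjusted p = 0.042, edgeR) and by 1.18 at 18 h (SE 0.18, adjusted p = 3.1e-05), with 0.38 at 5 h (SE 0.18, adjusted p = 0.32). All 3 times share the libraries of 0 h, so the lower starting levels of both genes enter each of these values. At 1 h, no difference in Irf1 or Irf7 was called between the genotypes, so the interaction there rests on the difference before LPS. In levels, Irf7 was at 18.0 ± 1.78 CPM in BMDM-WT and 18.4 ± 2.69 CPM in BMDM-Nur77-KO at 1 h, a rise in BMDM-Nur77-KO (0.72, SE 0.14, adjusted p = 2.5e-04, edgeR) and no call in BMDM-WT (-0.22, SE 0.13, adjusted p = 0.24). The interaction of Irf7 at 1 h was lost in 12 of 16 fits without a single library, with an adjusted p of up to 0.13 without replicate 3 of BMDM-WT at 0 h.

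For Irf8, the response was larger in BMDM-Nur77-KO by 0.47 at 5 h (SE 0.10, adjusted p = 0.0085, edgeR) and by 0.62 at 18 h (SE 0.11, adjusted p = 1.3e-04), where it ended above its start and in BMDM-WT below it. For Irf9, it was larger by 0.42 at 5 h (SE 0.10, adjusted p = 0.012, edgeR) and by 0.34 at 18 h (SE 0.10, adjusted p = 0.023). The lower start of Irf9 in BMDM-Nur77-KO (-0.31) enters both values. Between the genotypes, no difference in Irf9 was called at 5 or 18 h (0.11 and 0.03, adjusted p = 0.23 and 0.82, edgeR). The call of Irf9 at 18 h was lost when replicate 1 of BMDM-Nur77-KO before LPS was left out (adjusted p = 0.067, edgeR) and in 4 other fits without a single library. Irf4 fell more in BMDM-Nur77-KO by 5 h (-1.80, SE 0.33, adjusted p = 0.0012, edgeR), from a higher start, and so did Irf2bp2 (-0.81, SE 0.14, adjusted p = 4.9e-04), from a like start of 109 ± 4.09 and 106 ± 5.32 CPM. Without the libraries that stood apart, 7 members were called at 18 h, with Irf2 (-0.37, adjusted p = 0.037, edgeR), Irf4 (1.18, adjusted p = 0.050 after rounding) and Irf5 (0.39, adjusted p = 0.017) added.

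Other genes of the pathway were read from lists written with earlier results of these data known. The 12 interferon-stimulated targets of ISGF3, IRF1 and IRF7 were mostly lower in BMDM-Nur77-KO before LPS (0 higher, 8 lower, median log2 fold change -0.57, beside -0.03 over all genes) and mostly higher at 18 h (10 higher, 0 lower, median 0.53, beside -0.01). Of all genes tested, 6.33% were higher and 6.34% lower before LPS, and 11.7% and 9.94% at 18 h. The GTPase gene Gbp2 had 31.3 ± 0.426 against 87.6 ± 13.3 CPM before LPS (log2 fold change -1.48, SE 0.27, adjusted p = 2.5e-04, edgeR) and 6713 ± 1466 against 3556 ± 301 CPM at 18 h (0.91, SE 0.25, adjusted p = 0.0087). The chemokine gene Cxcl10 had 2.22 ± 0.530 against 5.40 ± 0.620 CPM before LPS (-1.27, adjusted p = 1.3e-08, edgeR) and 2756 ± 139.5 against 1360 ± 78.5 CPM at 18 h (1.01, adjusted p = 7.7e-11). Ifit1, an antiviral RNA-binding protein gene, had 3131 ± 304 against 1901 ± 221.5 CPM at 18 h (0.71, adjusted p = 6.9e-05, edgeR). At 1 h, 0 targets were higher and 1 lower (median 0.05; 3.48% and 3.06% of all genes tested were higher and lower), and at 5 h 0 were higher and 3 lower (median -0.05; 13.7% and 10.7% of all genes). The interaction at 18 h was called for 10 of the 12 targets (9.44% of all genes tested), all with a larger response in BMDM-Nur77-KO. The lower levels of the targets before LPS enter these values. Without the libraries that stood apart, 10 targets were lower at 0 h, 1 at 5 h, and 10 were higher at 18 h.

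**Figure D4:**
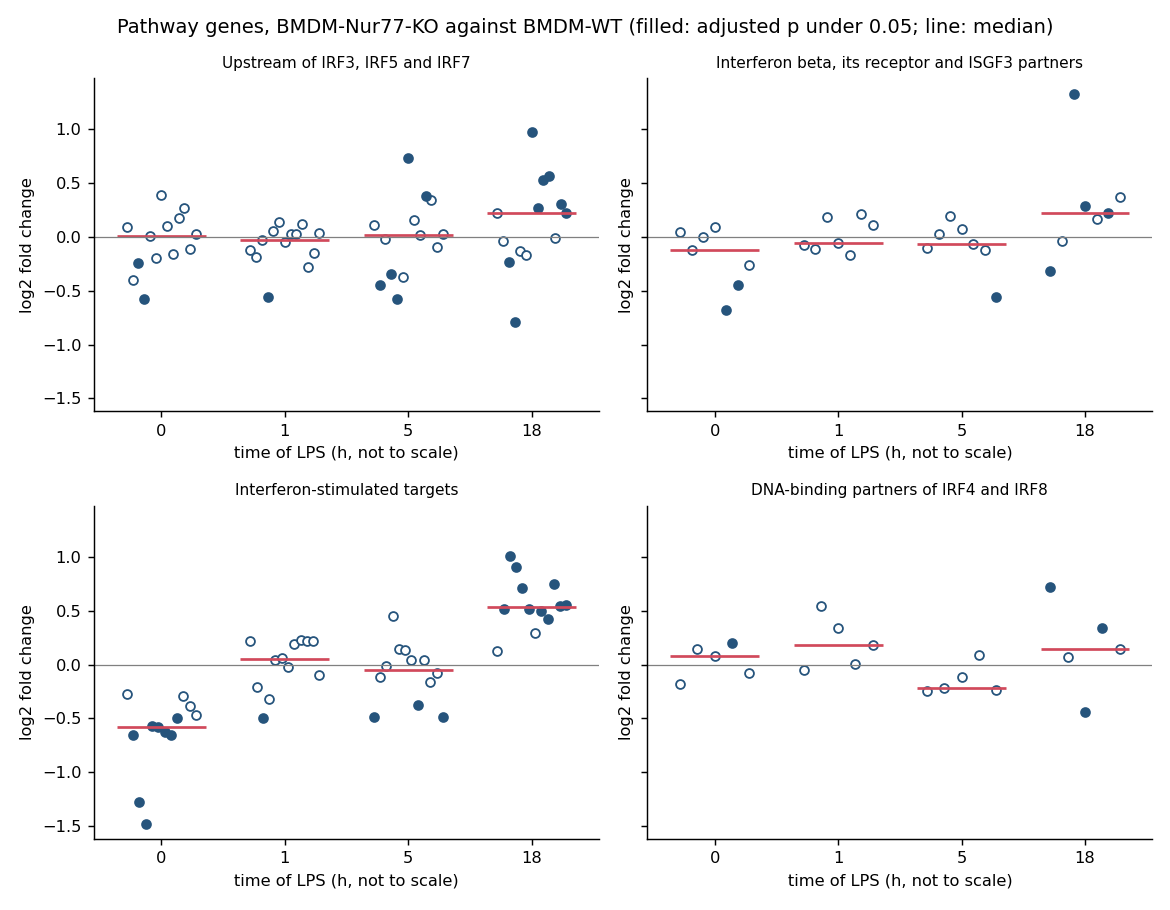
Fitted log2 fold change of BMDM-Nur77-KO against BMDM-WT (vertical axis) for the genes of 4 pathway lists before and after 1, 5 and 18 h of LPS. Each point is a gene, filled where the adjusted p is under 0.05, and the red line is the median of the list. The 12 interferon-stimulated targets had a median of -0.57 at 0 h and 0.53 at 18 h.

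Of 7 genes for interferon beta, its receptor, their kinases and the ISGF3 partners of IRF9, 0 were higher and 2 lower before LPS (6.33% and 6.34% of all genes tested). Among the lower was Stat2 (63.8 ± 6.39 against 87.0 ± 5.70 CPM, -0.44, adjusted p = 2.8e-04, edgeR). At 18 h, 3 were higher and 1 lower (11.7% and 9.94% of all genes tested). Ifnb1 was at 5.46 ± 0.470 against 2.14 ± 0.230 CPM (1.33, adjusted p = 4.3e-06, edgeR), Jak1 higher by 0.29 (adjusted p = 0.018) and Stat2 by 0.22 (adjusted p = 0.040). The receptor chain Ifnar1 was lower (log2 fold change -0.31, adjusted p = 2.4e-05, edgeR). Ifnb1 had 0 counts in all 8 libraries of 0 h and was highest at 1 h, at 20.4 ± 1.72 CPM in BMDM-WT and 23.2 ± 4.02 CPM in BMDM-Nur77-KO. Of 13 genes upstream of IRF3, IRF5 and IRF7, 0 were higher and 2 lower before LPS (Irak4 -0.57 and Irak1 -0.24, adjusted p = 1.4e-05 and 0.013, edgeR), and 6 were higher and 2 lower at 18 h (11.7% and 9.94% of all genes tested). Without the libraries that stood apart, 2 were higher and 3 lower before LPS and 5 higher and 2 lower at 18 h, and after correction for GC content 7 were higher and 1 lower at 18 h. The largest differences at 18 h in the fit to all libraries were those of Tank, an adaptor of the kinase TBK1 (0.98, adjusted p = 0.0014, edgeR), the kinase gene Irak4 (-0.79, adjusted p = 1.9e-08) and the TRIF pathway genes Ticam2 (0.57, adjusted p = 3.0e-07) and Ticam1 (0.53, adjusted p = 2.4e-05), which encodes TRIF. Tank spread widely in BMDM-Nur77-KO, from 226 to 449.5 CPM, against 139 to 180 CPM in BMDM-WT. Its place in this order without the libraries that stood apart is not given. Of 5 DNA-binding partners of IRF4 and IRF8, Ikzf1 alone was called before LPS (0.20, adjusted p = 0.045, edgeR). At 18 h, Batf (91.2 against 55.1 CPM, 0.72, adjusted p = 3.2e-05, edgeR) and Ikzf1 (0.34, adjusted p = 2.0e-04) were higher and Cebpa lower (-0.44, adjusted p = 0.020), while Spi1, the gene of PU.1, and Batf3 were not called. Irf2bpl was lower in BMDM-Nur77-KO at 5 and 18 h (-0.65 and -0.37, adjusted p = 1.7e-04 and 0.0077, edgeR), as was Irf2bp2.

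The genes whose log2 CPM followed a member most closely over the 32 libraries were found by Pearson's r among all genes tested. For Irf1 they were Il1b (0.990), Socs3 (0.985) and Ccrl2 (0.980), and for Irf2 Rbbp8 (0.973), Filip1l (0.972) and Aim2 (0.972). For Irf7 they were Tapbp, Lgals9 and Oas3 (0.997, 0.997 and 0.996), for Irf9 the GTPase genes Irgm1, Igtp and Irgm2 (0.992, 0.992 and 0.991), and for Irf8 Trip10, Schip1 and Iqschfp (0.993, 0.990 and 0.990). For Irf5 they were Psmb10, Lrp10 and Vasp (0.982, 0.982 and 0.980), for Irf4 Dusp4, Myc and Ksr2 (0.967, 0.963 and 0.951), for Irf2bp2 Lhfpl2, Tfeb and Speg (0.988, 0.987 and 0.986), and for Irf3 Slc35b2 and Ddx28 (0.904 and 0.861). The libraries share groups and depth, and the values are descriptions.

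All members but Irf2bp2 had 2 or 3 transcripts in the table, and reads shared between them cannot be assigned to one. The other transcripts carried 54.8% to 99.9% of the mean count of the one used. The lowest shares were those of 1 Irf1 transcript (54.8%) and 1 Irf5 transcript (66.9%). The share of the Irf1 transcript was 73.0% and 66.5% in the libraries that stood apart and 50.3% to 64.0% in the others. With this transcript in place of the one used, the log2 ratio of Irf1 between the genotypes was 0.34 at 5 h and 0.85 at 18 h, given as values with no test. Exons of Irf5 share 14.2% of their bases with Tnpo3 and those of Irf2bp2 20.4% with Gm26759, both on the opposite strand, and 4 other members share 1.19% to 3.40% with a neighbouring gene (Irf1, Irf3, Irf7 and Irf9). The libraries were strand-specific per the study's methods, and counts were made with the default settings of HOMER, whose handling of strand is not spelled out there, so these values may include reads of the neighbours. For Irf9, the neighbour Rnf31 lies on the same strand (2.28% of bases), so strand cannot separate reads from the shared bases.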

How the data were processed

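Per the study's methods and the labels, paired-end RNA-seq reads were aligned to mm10 with HISAT2 2.1.0, filtered on mapping quality and counted per RefSeq transcript with HOMER. The table the authors deposited holds estimated counts, as multiples of 0.5 (1 mate adds 0.5; 28.6% of values were not whole), which were rounded here. CASAVA 1.8.2 is also named in the submitters' processing notes. Of 42361 transcripts, 93 had no gene name (0.233% to 1.37% of counts) and were left out of library sizes and tests. Groups were taken from the labels. The test took genes whose group mean passed an RPKM of 1 anywhere and used edgeR 4.0.16 (quasi-likelihood, TMM, 8 group means over 32 libraries), and an adjusted p under 0.05 was called, with no fold limit. limma 3.58.1, DESeq2 1.42.0 and R 4.3.3 served the rest. The code was tested on simulated data. The members and lists were chosen with earlier results of these data known. Named were all 9 members, Nr4a1, at most 4 genes a list (the largest differences among those called in a comparison) and the 3 genes most like each member by Pearson's r, except for a few genes that are not reported here. Promoters came from RefSeq (GRCm38.p6) and shared exons from GENCODE. Alternatives were other scalings, filters, fits, summed transcripts, a fold limit and single libraries left out.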

Additional observations from a re-analysis of the deposited data

Results flagged for a closer look

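In 9 of the 72 groups of 4 libraries (9 genes in 8 groups), 1 library lay far from the other 3 by Dixon's ratio, the gap to the nearest library over the whole range. Chance alone gives about 1 in 20 for a single group. The share over all genes is not given and the 9 genes share their libraries, so the count cannot be read as particular to the members. Irf7 had 3 of them, in replicate 3 of BMDM-WT at 0 h (26.7 against 18.6 to 19.4 CPM, ratio 0.908), in replicate 2 of BMDM-WT at 5 h (682 against 747 to 750.1 CPM, 0.956) and in replicate 4 of BMDM-Nur77-KO at 18 h (1802 against 2163 to 2211 CPM, 0.883). The last of these libraries also held the high Irf2 (284 against 169 to 180.5 CPM, 0.900). Irf8 was apart in replicate 4 of BMDM-Nur77-KO at 0 h (188 against 160 to 164 CPM, 0.853) and in replicate 1 at 5 h (1599 against 1803 to 1841 CPM, 0.845). The others were Irf5 in replicate 1 of BMDM-Nur77-KO at 1 h (230 against 195 to 198.5 CPM, 0.892), and, in replicate 4 of BMDM-WT at 5 h, Irf9 (109.9 against 103.8 to 104.3 CPM, 0.922) and Irf2bp2 (22.1 against 15.7 to 16.7 CPM, 0.844). The wide groups of Irf2 and Irf5 in BMDM-Nur77-KO at 5 h did not pass this ratio.

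The response to LPS differed between the genotypes by the interaction test of edgeR in 11 cases, on the log2 scale and relative to BMDM-WT. At 1 h these were Irf1 (0.87) and Irf7 (0.94). At 5 h they were Irf1 (0.96), Irf4 (-1.80), Irf8 (0.47), Irf9 (0.42) and Irf2bp2 (-0.81), and at 18 h Irf1 (1.53), Irf7 (1.18), Irf8 (0.62) and Irf9 (0.34).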

How the results depend on the processing

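Over 153 values (9 genes in 17 comparisons) and their alternatives, 2863 settings in all, 0 changed the direction of a called value and 78 changed a call or moved a value. The number of members called at the 1 h interaction, 2, was 1 with filterByExpr, with no filter on low counts and with the replicate block, and 1 to 2 with single libraries left out. With only the libraries compared in the fit, it was 2 in place of 4 for the genotypes at 5 h, and 5 in place of 3 for LPS at 1 h in BMDM-WT; the latter was also 5 without the libraries that stood apart, as the 18 h interaction was 7 in place of 4. A fold limit (0.58 between genotypes, 1 between times, log2) left 2 of 4 calls between the genotypes at 5 h and 2 of 4 at 18 h, 5 of 8 for LPS at 18 h in BMDM-WT, 1 of 4 for LPS at 1 h in BMDM-Nur77-KO, 5 of 8 (BMDM-WT) and 3 of 7 (BMDM-Nur77-KO) from 5 to 18 h, and 3 of 5 for the 5 h interaction. The fold limit was applied to the calls of the main fit, so the calls lost to it are those with smaller fold changes. The cause of the other changes was not tested. The interaction of Irf9 at 5 h had an adjusted p of 0.070 (edgeR) with only the libraries compared. The deviations of same-numbered libraries of the genotypes correlated with r of -0.46 to 0.35. This does not decide whether such libraries share more than a number, such as a batch, and the main fit used no pairing. At 2 to 22 counts per library, Irf4 after 5 and 18 h is limited by depth. Whether the intervals cover differences between animals is not known, since the number of animals is not given.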
